A study of Rattus norvegicus with 4 samples.

Results

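The comparison set the frontal cortex library of female rat pups exposed to bisphenol A (BPA) before birth against that of vehicle control females, over the known genes, those listed with a numeric gene identifier. The female tables list 13545 such genes, of 14008 known genes listed in either sex. Another 3274 of the 16819 transcripts listed for females, predicted from the reads and without such an identifier, were left out of every count and sum. Dams, Wistar Furth rats in the methods and Wistar in the labels, were dosed by oral gavage each day from gestation day 1 until they gave birth, with BPA at 5000 µg per kg of maternal body weight or with vehicle alone, and the labels give the pups' age as postnatal day 1 where the methods give days 1 to 2. The 4 groups, control and BPA of each sex, have 1 RNA library each; 3 pups per sex and treatment from 6 litters were taken, and the methods do not state how pups were pooled. The methods state that the meninges were completely removed, and the labels name the tissue as frontal cortex.

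BPA is a monomer of polycarbonate plastics that binds several nuclear receptors, most of them weakly. The newborn rat cortex holds projection neurons that have just settled in layers, interneurons still arriving from the ganglionic eminences, radial glia turning into astrocytes, vessels and a few immune cells. Around it lie the meninges, whose fibroblasts secrete collagens, growth factors and retinoic acid and whose arachnoid cells form a barrier with claudins and transporters, and next to it lie the striatum and the olfactory bulb.

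Expression was read as FPKM (fragments per kilobase of transcript, scaled to the depth of the library), which takes length into account, so levels of different genes can be set side by side. The files list undetected genes at 0.01, which stands for 0. The steps between the FPKM of scarce genes put the depth at about 8955000 fragments in the control female and 9000000 in the BPA female (9265000 and 9195000 in the males). At these depths 93.6% of 503 scarce genes in the control female and 94% of 498 in the BPA female lie within 0.1 of a whole fragment. The depths were chosen to bring these same genes closest to whole fragments, so the shares are no separate check. In control and BPA females 11254 and 11017 known genes reach 10 fragments, and 10772 and 10442 reach 1 FPKM. The 5 most abundant known genes are the same in both female libraries, Tuba1a, Tubb2b, Eef1a1, Stmn1 and Actg1, and they encode tubulins, a translation factor, a tubulin-binding protein and actin. The tubulin Tuba1a leads them at 8980.09, 10134.9, 9242.86 and 10707.24 FPKM, here and below in the order control female, BPA female, control male and BPA male.

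The sex labels hold in all 4 libraries. LOC100911498, whose RefSeq entry is the X-inactivation transcript Xist, stands at 67.34, 75.79, 0.09 and 0.14 FPKM. The Y-linked Eif2s3y stands at 0.01, 0.07, 52.77 and 47.18 FPKM, while the other Y-linked gene listed, Ddx3y, is near 0 in all 4 (0.04, 0.01, 0.01 and 0.07 FPKM). Cortical genes are present, which does not show the frontal part of the label: the deep layer factor Tbr1 is at 66.79, 64.84, 61.28 and 69.0 FPKM and the projection neuron factor Neurod2 at 45.38, 67.45, 45.76 and 61.95 FPKM. Both are cortical projection neuron genes, and neither passes 2-fold between the female libraries.

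The size of each difference is log2((BPA + 0.5)/(control + 0.5)) on FPKM, called the log2 ratio below; the 0.5 keeps scarce genes from dominating and makes their ratios smaller than the plain ones. A gene counts as higher or lower when this value reaches 1 in size, which is 2-fold. Parentheses after a gene's levels hold its log2 ratio in females and then in males. With 1 library per group there is no replicate check and no test: the comparison is one of libraries, not of conditions, and a difference between pups or dissections was not tested apart from one of exposure. Intervals given for single genes are exact (Clopper-Pearson) 95% intervals of the plain ratio from estimated fragments, and cover counting error alone.

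The BPA female library held less RNA of meningeal fibroblasts, arachnoid cells and their collagens, and to a smaller degree of vessels, border macrophages and astrocytes. Genes of the olfactory bulb's output neurons were uneven, with Cdhr1 far lower. Striatal projection neuron genes, led by Rxrg, and upper layer cortical genes leaned higher, and the genes of new neurons, ribosomes and chromatin lay closer to even. Among the lists with a lower median, cholesterol synthesis was one in which nearly every member lay below 0, mostly by less than 2-fold. In the male libraries most of these list medians lay on the same side of 0 and nearer to it, and that of pericytes was close to the median of all genes; the likeness of the sexes was not tested.

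Of the 13545 known genes, 329 (2.43%) passed 2-fold between the female libraries: 34 (0.251%) were higher in BPA and 295 (2.18%) lower. The median log2 ratio was −0.06, with quartiles of −0.26 and 0.09 and with 5% of genes below −0.75 and 5% above 0.35; 7969 genes (58.8%) lay below 0. The lower genes were mostly scarce: their median level was 2.82 FPKM in the control and 0.78 in BPA, and 46 of the 295 reached 10 FPKM in either library. The higher genes were scarcer still, at a median of 0.215 FPKM in the control and 1.16 in BPA, and 2 of the 34 reached 10 FPKM. Summed, the lower genes went from 2480 to 786 FPKM and the higher ones from 42.5 to 126. Of the lower genes, 35 belong to the meningeal fibroblast or arachnoid list, none of the higher ones does, and those 35 hold 35.3% of the control female FPKM of the lower genes. At 0.01 in the control female alone were 412 genes, none above 1.15 FPKM in BPA, and at 0.01 in the BPA female alone were 583, none above 2.82 FPKM in the control.

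**Figure D1:**
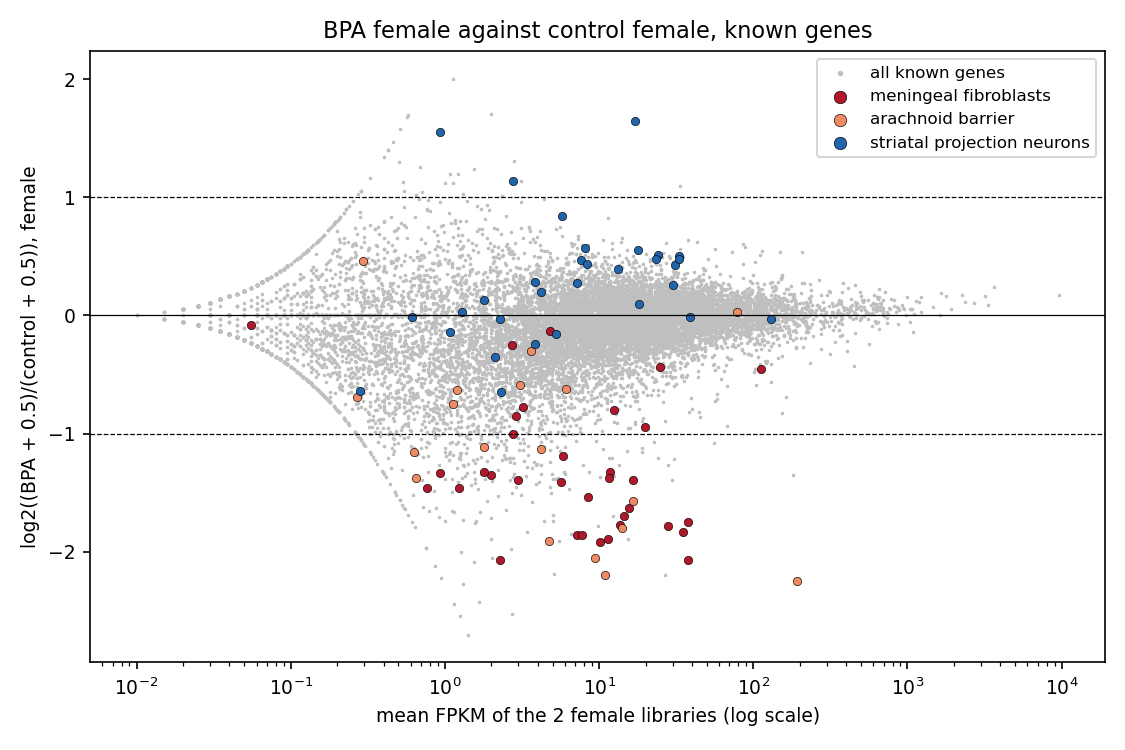
Log2 ratio of BPA to control for every known gene in females, against its mean level. Members of the meningeal fibroblast and arachnoid lists and of the striatal list are marked, and dashed lines stand at 2-fold.

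The counts differed with level. In 5 equal bins of mean FPKM with 2709 genes each, the share past 2-fold was 3.25% in the lowest, 6.35% from 0.84 to 4.87 FPKM, 1.51% from 4.87 to 12.5, 0.701% from 12.5 to 29.6 and 0.332% in the highest. The medians of the same bins were −0.12, −0.23, −0.09, −0.02 and 0.02. Short transcripts passed more often, with 4.95% of the shortest bin and 1.03% of the longest. Over 13469 genes with a chromosome in the RefSeq annotation of GRCr8, a later build than the rn6 of the files, the medians ran from −0.11 on chromosome 15 to −0.01 on chromosome 12, leaving out Y with its 1 gene.

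Meningeal fibroblast genes had the lowest median of the 51 cell type and gene class lists described below. Of the list's 36 members 34 were listed, all 34 lay below 0, 25 were lower by 2-fold and none was higher; 13 of the 34 are also in another list. Their median log2 ratio was −1.40, with quartiles of −1.77 and −0.96, against −0.06 over all known genes. Summed over the list, the levels were 673, 280.5, 574.6 and 328 FPKM, and in males the median was −0.94 with 15 members lower. The most abundant member, the growth factor binding protein Igfbp2, was not past 2-fold at 129.94, 94.63, 114.5 and 98.15 FPKM (−0.46 and −0.22). Igf2, an imprinted growth factor, fell more, at 61.1, 14.13, 61.22 and 18.69 FPKM (−2.07 and −1.69), with about 1962 and 456 fragments in the females and an interval of −2.26 to −1.96. The collagen I chain Col1a2 was at 58.67, 17.15, 50.45 and 21.71 FPKM (−1.75 and −1.20). These fibroblast genes share one direction while differing widely in level. Among the other collagens, the chain Col3a1 was at 54.98, 15.06, 40.16 and 19.31 FPKM (−1.83 and −1.04). Col1a1, the partner chain of Col1a2, was at 43.39, 12.23, 35.91 and 14.95 FPKM (−1.79 and −1.24).

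The list also holds small proteoglycans that bind collagen fibrils, and 3 of them follow. Decorin (Dcn) was at 22.59, 6.62, 22.33 and 9.66 FPKM (−1.70 and −1.17). The keratan sulfate proteoglycan Ogn was at 21.46, 5.93, 17.92 and 8.37 FPKM (−1.77 and −1.05). Lum, its relative lumican, was at 11.54, 2.81, 12.31 and 5.35 FPKM (−1.86 and −1.13). The meningeal retinoic acid enzyme and carrier differed by less in males than in females. Aldh1a2, which makes retinoic acid, was at 16.36, 3.96, 12.03 and 6.11 FPKM (−1.92 and −0.92). Crabp2, which carries it inside the cell, was at 12.87, 4.11, 9.93 and 7.31 FPKM (−1.54 and −0.42). The GABA and taurine transporter Slc6a13 was at 18.18, 4.54, 12.54 and 5.28 FPKM (−1.89 and −1.17). The transcription factors Tbx18 and Foxd1 were scarce. Tbx18, of mural and meningeal cells, was at 2.78, 0.81, 2.59 and 0.89 FPKM (−1.32 and −1.15). Foxd1, a forkhead factor, was at 2.04, 0.42, 1.15 and 0.46 FPKM (−1.47 and −0.78). Fewer cells of a type and less RNA per cell cannot be told apart in bulk tissue. The part that meningeal tissue plays in the other differences was not tested.

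Arachnoid barrier genes followed. All 18 members were listed, 16 lay below 0, 10 were lower by 2-fold and none was higher, with a median of −1.12 (−0.74 in males) and 7 members shared with other lists. Summed, the list stood at 516.5, 185.2, 389.8 and 238.9 FPKM. More than any other member, the prostaglandin D synthase Ptgds carried that sum, at 320.0, 66.86, 214.04 and 109.08 FPKM (−2.25 and −0.97), with about 2003 and 421 fragments in the females and an interval of −2.41 to −2.11. Cldn11, the tight junction claudin of arachnoid cells and myelin, was at 18.13, 3.56, 17.24 and 6.25 FPKM (−2.20 and −1.39). The gap junction connexin Gjb2 was at 15.44, 3.34, 15.89 and 5.0 FPKM (−2.05 and −1.58). Transporters of the barrier differed in the same direction. The sulfate transporter Slc13a4 was at 22.15, 6.02, 14.47 and 7.83 FPKM (−1.80 and −0.85). The organic anion transporter Slc22a6 was at 25.21, 8.15, 22.02 and 9.26 FPKM (−1.57 and −1.21). Exceptions were the thyroid hormone binding protein Crym, at 77.87, 79.45, 77.45 and 83.14 FPKM (0.03 and 0.10), and the scarce keratin Krt18, at 0.17, 0.42, 0.24 and 0.24 FPKM (0.46 and 0.00).

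**Figure D2:**
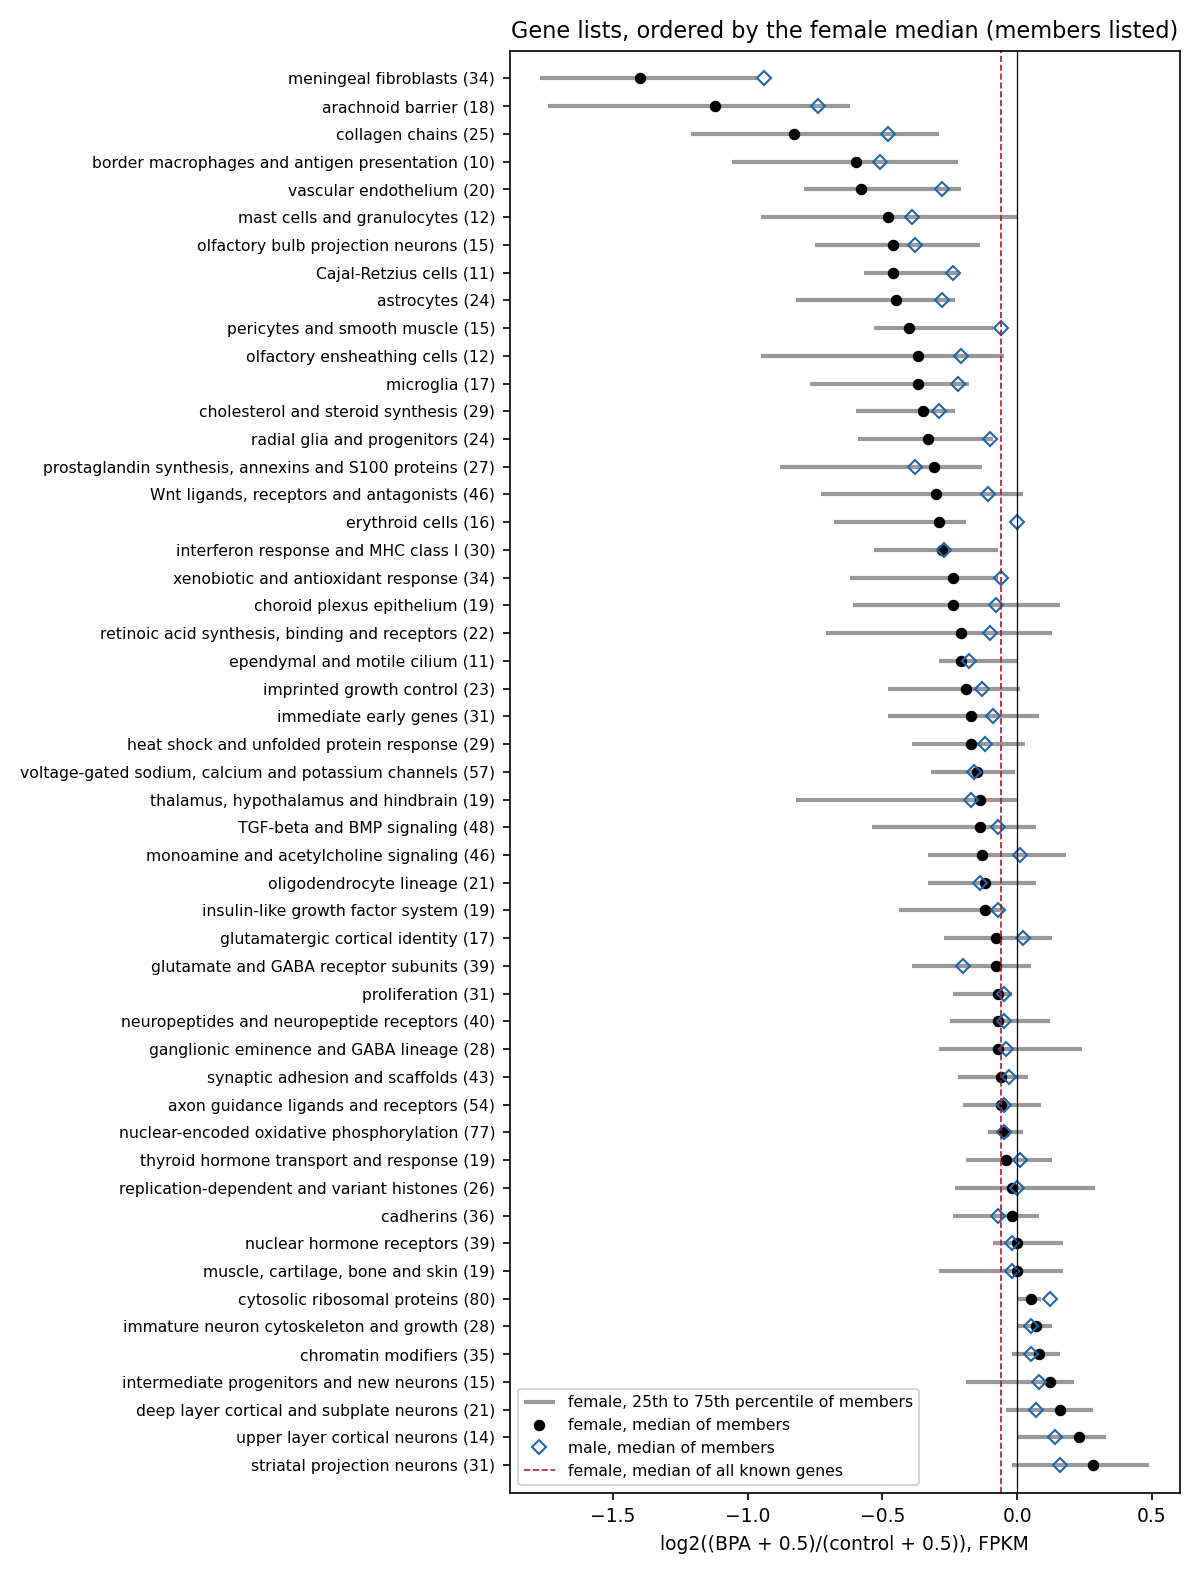
Median and quartiles of the female log2 ratio in each gene list, with the male median beside it. The medians of the mast cell, muscle, nuclear receptor, thyroid hormone, cadherin and histone lists change sign under another filter, pseudocount or scaling. For the mast cell list this is a filter that leaves only Kit.

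Collagen chains as a class were lower in the BPA female. Of 40 chains 25 were listed, 21 lay below 0 and 7 were lower by 2-fold, with a median of −0.83 (−0.48 in males) and sums of 291.3, 115.4, 244.6 and 134.3 FPKM; 7 chains are in another list as well. Basement membrane collagen was split by chain. Col18a1, the source of endostatin, was at 21.31, 5.97, 18.6 and 8.81 FPKM (−1.75 and −1.04). Col4a1, which vessels make, stayed within 2-fold at 42.59, 28.82, 38.25 and 31.96 FPKM (−0.56 and −0.26). The cartilage chain Col2a1 had the highest female log2 ratio of the class, at 1.1, 2.13, 1.13 and 1.45 FPKM (0.72 and 0.26).

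Vessel genes had medians nearer 0. The endothelial list had 20 of 21 members listed, all 20 below 0 and 2 lower by 2-fold, with a median of −0.58 (−0.28 in males) and sums of 220.9, 143.7, 189.6 and 160.3 FPKM. The blood-brain barrier claudin Cldn5 was at 70.46, 42.57, 60.49 and 55.8 FPKM (−0.72 and −0.12). Cdh5, the cadherin of endothelial junctions, passed 2-fold at 13.16, 6.03, 11.47 and 8.14 FPKM (−1.06 and −0.47). Emcn, a sialomucin of veins and capillaries, did so at 3.37, 1.06, 2.3 and 2.56 FPKM (−1.31 and 0.13). The glucose transporter Slc2a1 was nearer even, at 17.24, 14.98, 14.86 and 16.88 FPKM (−0.20 and 0.18). Pericyte and smooth muscle genes had 13 of 15 members below 0 and none past 2-fold, with a median of −0.40 (−0.06 in males). Their most abundant member, the pericyte signaling regulator Rgs5, was at 27.77, 18.7, 26.2 and 19.44 FPKM (−0.56 and −0.42). Erythroid genes had a median of −0.29 (0.00 in males) over 16 of 21 members, 2 of them lower, and summed to 1556, 1282, 1668 and 1567 FPKM. The alpha globin Hba1 led them at 608.44, 515.89, 638.29 and 624.61 FPKM (−0.24 and −0.03). Near-identical globin copies share reads, so values of single copies are uncertain. Of the 2 lower members, Ahsp rested on about 5 and 1 fragments in the females, and equal levels lie within its counting error.

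Genes of immune cells of the brain and its borders also had medians below 0. Microglia had 15 of 17 listed members below 0 and 2 lower by 2-fold, with a median of −0.37 (−0.22 in males) and sums of 102.9, 70.78, 90.71 and 82.76 FPKM. The adaptor Tyrobp differed between the sexes in sign, a difference not tested, at 8.05, 2.06, 2.0 and 3.58 FPKM (−1.74 and 0.71). C1qa, a complement chain, was at 9.03, 4.26, 7.5 and 5.87 FPKM (−1.0 and −0.33). Border macrophage and antigen presentation genes had 8 of 10 listed members below 0 and 3 lower, with a median of −0.60 (−0.51 in males). It moves to −1.01 over the 6 members at 1 FPKM or more in either female library. Members such as Cd163 pass that filter through the control alone, so they are lower by construction. Cd163, a scavenger receptor among the 3 lower members, was at 1.21, 0.29, 0.68 and 1.0 FPKM (−1.11 and 0.35). The mannose receptor Mrc1 was at 4.15, 1.46, 2.99 and 1.73 FPKM (−1.25 and −0.65). Lyve1, a hyaluronan receptor, was at 5.48, 2.03, 4.62 and 1.73 FPKM (−1.24 and −1.20). Mast cell and granulocyte genes, scarce except for Kit, had 2 of 12 listed members lower and a median of −0.48 (−0.39 in males). When 1 FPKM is asked of both libraries only Kit is left, at 0.01. When it is asked of either library the median is −1.30 over 4 members, and all of these but Kit pass through the control alone. The mast cell carboxypeptidase Cpa3 was at 3.56, 0.48, 3.21 and 0.55 FPKM (−2.05 and −1.82). Kit itself was at 18.57, 18.73, 17.35 and 20.44 FPKM (0.01 and 0.23).

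Of the listed genes of ventricle linings, 6 of 19 for the choroid plexus and 5 of 11 for the ependyma reach 1 FPKM in either female library. Of the choroid plexus list all 19 members were listed, 11 lay below 0 and 3 were lower by 2-fold. The list's median was −0.24 (−0.08 in males) and moves to −0.73 over members at 1 FPKM or more in either female library. That filter takes in members such as Kcnj13 through the control alone, which are lower by construction. The list's defining transthyretin, Ttr, was listed for females alone, at 0.35 FPKM in the control and 0.01 in BPA, and 4 of the 19 are in other lists. Kcnj13, a potassium channel of that epithelium, was at 1.67, 0.46, 1.25 and 0.45 FPKM (−1.18 and −0.88). Calml4, another of the 3 lower members, rested on about 6 and 1 fragments in the females, and equal levels lie within its counting error. Ependymal and motile cilium genes had 11 of 20 members listed and none past 2-fold, with a median of −0.21 (−0.18 in males). The cilium factor Foxj1 was at 1.25, 1.05, 1.11 and 1.03 FPKM (−0.18 and −0.07).

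Olfactory bulb projection neuron genes were uneven. Of 18 members 15 were listed, 12 lay below 0 and 3 were lower by 2-fold, with a median of −0.46 (−0.38 in males), while 7 of the 15 are in other lists. Cdhr1, a photoreceptor and mitral cell cadherin, fell the most among its well-covered members, at 44.48, 9.29, 41.1 and 10.77 FPKM (−2.20 and −1.88), with about 1690 and 355 fragments in the females and an interval of −2.43 to −2.09. The mitral and tufted cell factor Tbx21 was scarce at 0.85, 0.05, 1.74 and 0.01 FPKM. The large glycoprotein Reln, also made by Cajal-Retzius cells, was close to even at 40.83, 37.83, 31.16 and 36.96 FPKM (−0.11 and 0.24). Olfactory ensheathing cell genes had 10 of 12 listed members below 0 and 2 lower, with a median of −0.37 (−0.21 in males); 10 of the 12 also mark other cells. Frzb, a secreted Wnt antagonist, was at 4.55, 0.78, 4.76 and 1.45 FPKM (−1.98 and −1.43). The peptide Npy had the highest female log2 ratio of that list, at 93.08, 135.76, 101.53 and 98.14 FPKM (0.54 and −0.05).

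Striatal projection neuron genes had the highest median of the lists. Of 32 members 31 were listed, 10 lay below 0, 3 were higher by 2-fold and none was lower, with a median of 0.28 and quartiles of −0.02 and 0.49; 11 of the 31 are in other lists. The male median was 0.16, and the sums were 431.6, 527.8, 420.3 and 506.7 FPKM. Rxrg, a retinoid X receptor, rose the most of its members, at 8.0, 26.17, 6.11 and 24.56 FPKM (1.65 and 1.92), with about 138 and 455 fragments in the females and an interval of 1.44 to 2.0. The striatal factor Ebf1 was at 1.53, 3.96, 1.59 and 3.99 FPKM (1.14 and 1.10), with an interval of 0.97 to 1.78. Ikzf1, a zinc finger factor, was scarce at 0.23, 1.64, 0.61 and 0.94 FPKM (1.55 and 0.38). Other members of the same list were within 2-fold. The dopamine receptor Drd2 stayed within 2-fold at 3.96, 7.51, 4.25 and 7.93 FPKM (0.84 and 0.83). The dopamine-regulated phosphoprotein Ppp1r1b was at 27.23, 38.78, 24.12 and 31.97 FPKM (0.50 and 0.40). Rasd2, a small GTPase of striatal neurons, had the lowest ratio of the list, at 2.95, 1.7, 2.0 and 2.08 FPKM (−0.65 and 0.05), with an interval of −1.32 to −0.29. The factors Meis2 and Bcl11b were almost equal between the libraries. Meis2, a homeobox factor of the striatum and of other forebrain neurons, was at 131.64, 129.04, 131.93 and 134.89 FPKM (−0.03 and 0.03). Bcl11b, shared by striatal and deep layer cortical neurons, was at 39.25, 38.79, 37.95 and 39.8 FPKM (−0.02 and 0.07).

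Interneuron lineage genes were centered near 0. Of 29 members of the ganglionic eminence and GABA lineage list 28 were listed, 1 was higher, 1 was lower and the median was −0.07 (−0.04 in males). The calcium-binding calretinin, Calb2, was the lower one at 33.96, 14.41, 40.02 and 17.17 FPKM (−1.21 and −1.20), by nearly the same amount in both sexes. The scarce progenitor factor Gsx1 was the higher one, at 0.15, 0.92, 0.6 and 0.15 FPKM (1.13 and −0.76). Sst, the peptide of a main interneuron class, was at 113.12, 96.99, 122.45 and 91.78 FPKM (−0.22 and −0.41).

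Cortical layer genes had medians above 0, that of the upper layers not far from the striatal one. Upper layer genes had 14 of 16 members listed, 4 below 0 and none past 2-fold, with a median of 0.23 (0.14 in males). Lhx2, a progenitor and upper layer factor, had the highest female log2 ratio of them, at 21.05, 30.61, 21.25 and 29.09 FPKM (0.53 and 0.44). Deep layer and subplate genes had 21 of 24 members listed, 8 below 0 and none past 2-fold, with a median of 0.16 (0.07 in males). Pcp4, a calmodulin regulator of deep layer neurons, was at 67.9, 103.82, 63.36 and 89.18 FPKM (0.61 and 0.49). Etv1, a layer 5 factor, went the other way at 14.79, 9.78, 14.7 and 12.95 FPKM (−0.57 and −0.18). Genes of glutamatergic identity had 17 of 20 members listed, none past 2-fold, and a median of −0.08 (0.02 in males). Here the members diverged. The vesicular glutamate transporter Slc17a7 was at 56.97, 32.17, 51.08 and 30.0 FPKM (−0.81 and −0.76), with an interval of −0.97 to −0.67. Neurod2, a factor of the same neurons, was at 45.38, 67.45, 45.76 and 61.95 FPKM (0.57 and 0.43). Cajal-Retzius genes, which mark the outermost neurons, had 10 of 11 listed members below 0 and a median of −0.46 (−0.24 in males); Calb2 was the member past 2-fold, and 7 of the 11 are in other lists. Their p53 relative Tp73 was at 2.01, 1.33, 1.27 and 1.06 FPKM (−0.46 and −0.18).

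**Figure D3:**
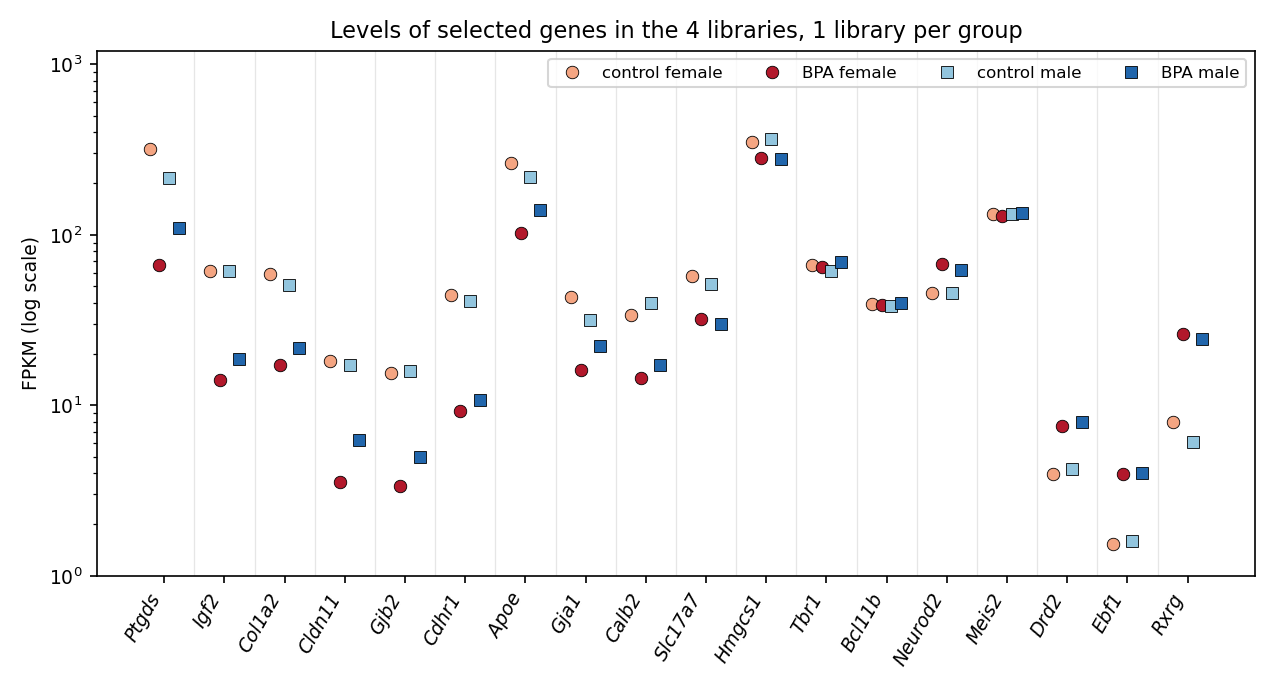
FPKM of selected genes in the 4 libraries, from meningeal genes on the left to striatal genes on the right. Each point is 1 library.

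Glial genes had medians below 0, astrocytes further than the oligodendrocyte lineage. All 24 astrocyte members were listed, 21 lay below 0 and 4 were lower by 2-fold, with a median of −0.45 (−0.28 in males) and sums of 1669, 1124, 1538 and 1295 FPKM. The lipid carrier Apoe was at 261.94, 102.38, 218.08 and 139.9 FPKM (−1.35 and −0.64), with an interval of −1.46 to −1.25. Gja1, the astrocyte connexin that meningeal cells also make, was at 43.21, 16.11, 31.67 and 22.31 FPKM (−1.40 and −0.50). Connexin Gjb6, shared with the arachnoid list, was another of the 4. Cst3, the most abundant member, stayed near even at 400.08, 357.35, 401.86 and 395.03 FPKM (−0.16 and −0.02). Radial glia and progenitor genes had 19 of 24 members below 0 and 1 lower by 2-fold, with a median of −0.33 (−0.10 in males). The lower one was Pcp4l1, a relative of Pcp4, at 9.73, 4.41, 9.2 and 3.54 FPKM (−1.06 and −1.26). Vim, the intermediate filament of radial glia and fibroblasts, was at 126.05, 83.5, 121.81 and 106.94 FPKM (−0.59 and −0.19). Fabp7, their fatty acid binding protein, was at 515.56, 383.37, 532.55 and 457.14 FPKM (−0.43 and −0.22). Oligodendrocyte lineage genes had 21 of 24 members listed and 1 lower, Cldn11, with a median of −0.12 (−0.14 in males). The precursor receptor Pdgfra was at 24.31, 17.11, 21.65 and 19.09 FPKM (−0.49 and −0.18). Intermediate progenitor and new neuron genes had 15 of 18 members listed, none past 2-fold, and a median of 0.12 (0.08 in males). Sox4, a factor of new neurons, was at 121.32, 143.68, 124.23 and 160.06 FPKM (0.24 and 0.36). Proliferation genes had 31 of 32 members listed, none past 2-fold, and a median of −0.07 (−0.05 in males). The replication clamp Pcna was at 66.24, 63.06, 66.83 and 67.41 FPKM (−0.07 and 0.01). The neuron cytoskeleton and growth list, with all 28 members listed and none past 2-fold, had a median of 0.07 (0.05 in males). Its tubulin Tubb3 was at 1552.23, 1767.86, 1569.25 and 1886.54 FPKM (0.19 and 0.27).

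Genes of other brain regions and tissues were mostly scarce. The thalamus, hypothalamus and hindbrain list had 19 of 36 members listed and 2 lower, with a median of −0.14 (−0.17 in males). It moves to −0.90 over the 6 members at 1 FPKM or more in either female library. Members such as Avp pass that filter through the control alone, so they are lower by construction. The 2 lower ones were Calb2 and the vasopressin gene Avp, at 1.49, 0.21, 1.03 and 1.03 FPKM (−1.49 and 0.00). Avp rested on about 7 and 1 fragments in the females, and equal levels lie within its counting error. Muscle, cartilage, bone and skin genes had 19 of 26 members listed, none past 2-fold, and a median of 0.00 (−0.02 in males), whose sign depends on the setting. Immediate early genes, which dissection can induce, were all 31 listed, with 1 lower and a median of −0.17 (−0.09 in males). The lower one was the vessel and fibroblast factor Klf4, at 2.44, 0.67, 1.16 and 1.17 FPKM (−1.33 and 0.01).

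Retinoic acid genes past 2-fold lay on both sides. Of 24 members 22 were listed, 1 was higher and 3 were lower, with a median of −0.21 (−0.10 in males), while 10 of the 22 are in other lists. The higher one was Rxrg, and the lower ones were Aldh1a2, Crabp2 and the plasma retinol carrier Rbp4, at 8.65, 3.16, 4.99 and 4.26 FPKM (−1.32 and −0.21). Nuclear receptors, the class BPA is known to bind, had 39 of 47 members listed and 1 past 2-fold, again Rxrg; their median was 0.00 (−0.02 in males) and its sign depends on the setting. Esr1, the estrogen receptor alpha, rested on about 10 and 15 fragments in the females, at 0.55, 0.82, 0.64 and 0.48 FPKM (0.33 and −0.22). The thyroid hormone receptor Thra was at 373.32, 363.61, 363.67 and 370.43 FPKM (−0.04 and 0.03). Thyroid hormone transport and response genes had 19 of 21 members listed, none past 2-fold, and a median of −0.04 (0.01 in males), whose sign also depends on the setting.

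Cholesterol and steroid synthesis genes lay below 0 almost throughout, mostly by less than 2-fold. Of all known genes, 58.8% lay below 0 in females and 55.7% in males. Of the 32 members of the cholesterol list 29 were listed, 28 lay below 0 and 2 were lower by 2-fold, with a median of −0.35. In males 25 members lay below 0 with a median of −0.29. Their sums were 1537, 1198, 1537 and 1267 FPKM, and no member is in another list. Hmgcs1, which makes the pathway's first committed intermediate, was at 351.96, 280.89, 362.01 and 277.45 FPKM (−0.32 and −0.38), with an interval of −0.37 to −0.28. Sqle, the squalene epoxidase, was at 103.54, 82.53, 104.22 and 80.66 FPKM (−0.33 and −0.37). The 2 members past 2-fold are scarce and act elsewhere in steroid handling. Tspo, a mitochondrial outer membrane protein, was at 1.96, 0.28, 1.49 and 1.23 FPKM (−1.66 and −0.20). Akr1c14, a hydroxysteroid dehydrogenase, was at 2.15, 0.53, 1.37 and 1.19 FPKM (−1.36 and −0.15).

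Xenobiotic and antioxidant genes had 28 of 34 listed members below 0 and 4 lower by 2-fold, with a median of −0.24 (−0.06 in males). The phenol sulfotransferase Sult1a1, of a family that conjugates phenols such as BPA, was at 8.72, 1.52, 5.1 and 4.11 FPKM (−2.19 and −0.28). Cyp1b1, a cytochrome of vessels and meninges, was at 6.73, 2.95, 7.03 and 3.81 FPKM (−1.07 and −0.80). The glutathione transferases Gsta1 and Gstm2 were the others. Imprinted growth genes had 23 of 28 members listed and 4 lower, with a median of −0.19 (−0.13 in males). Beside Igf2 and Dcn these were the cell cycle inhibitor Cdkn1c, at 16.51, 6.85, 15.07 and 8.85 FPKM (−1.21 and −0.74). H19, the transcript beside Igf2, was the other, at 4.75, 1.73, 4.22 and 2.78 FPKM (−1.24 and −0.53). Nnat, the most abundant imprinted gene of the list, was near even at 895.14, 853.02, 963.86 and 1020.46 FPKM (−0.07 and 0.08). The insulin-like growth factor list had 19 of 21 members listed and 1 lower, Igf2, with a median of −0.12 (−0.07 in males). It moves to −0.36 over members at 1 FPKM or more in either female library.

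Of genes of neuronal signaling few passed 2-fold, as few did of all known genes (2.43%). Glutamate and GABA receptor subunits, all 39 listed, had none past 2-fold and a median of −0.08 (−0.20 in males). The kainate receptor subunit Grik1 was at 6.93, 9.44, 6.99 and 7.11 FPKM (0.42 and 0.02). Grm8 of the same list differed more, the other way, at 2.67, 1.22, 2.34 and 1.5 FPKM (−0.88 and −0.51). In females 26 of the 39 members lay below 0. Voltage-gated channels, all 57 listed, had none past 2-fold either and a median of −0.15 (−0.16 in males). The calcium channel gamma subunit Cacng5 came closest at 5.82, 2.75, 5.06 and 3.82 FPKM (−0.96 and −0.36). Monoamine and acetylcholine genes had 46 of 47 members listed, none past 2-fold, and a median of −0.13 (0.01 in males). Neuropeptide genes had 40 of 41 members listed and 1 lower, with a median of −0.07 (−0.05 in males). The lower one, neuromedin B (Nmb), rested on about 17 and 1 fragments in the females, at 3.16, 0.18, 2.52 and 1.99 FPKM (−2.43 and −0.28). Synaptic adhesion and scaffold genes had 43 of 44 members listed and 1 lower, with a median of −0.06 (−0.03 in males). That one was the synapse organizer Cbln4, at 2.05, 0.74, 1.37 and 0.65 FPKM (−1.04 and −0.70). Axon guidance genes had 54 of 62 members listed and 1 lower, with a median of −0.06 (−0.05 in males). Nrp2, a semaphorin receptor, was lower in both sexes at 26.21, 11.78, 23.04 and 8.71 FPKM (−1.12 and −1.35). Sema7a, a membrane semaphorin, was within 2-fold at 33.79, 52.13, 33.7 and 46.41 FPKM (0.62 and 0.46). Cadherins had 36 of 42 members listed and 2 lower, Cdhr1 and Cdh5, with a median of −0.02 (−0.07 in males) whose sign depends on the setting.

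Wnt and BMP genes past 2-fold were lower, as were 295 of the 329 known genes past it. The Wnt list had 46 of 51 members listed, 32 below 0 and 4 lower, with a median of −0.30 (−0.11 in males). Wnt4, a secreted ligand, was at 2.62, 0.97, 1.41 and 0.95 FPKM (−1.09 and −0.40). Its relative Wnt6, also in the arachnoid list, was at 2.62, 0.94, 1.84 and 0.76 FPKM (−1.12 and −0.89); Wnt16 and Frzb were the others. The TGF-beta and BMP list, all 48 listed, had 4 lower and a median of −0.14 (−0.07 in males). Bmp7, a ligand that meninges make, was at 8.06, 2.8, 6.98 and 3.24 FPKM (−1.38 and −1.0). Fst, Tgfbr3 and Smad6 were the others. Prostaglandin, annexin and S100 genes, all 27 listed, had 1 higher and 4 lower, with a median of −0.31 (−0.38 in males). Besides Ptgds, the membrane-binding annexin Anxa2 was at 24.53, 6.25, 19.12 and 13.95 FPKM (−1.89 and −0.44). Interferon and MHC class I genes, all 30 listed, had 1 lower, RT1-A1, whose copies share reads, and a median of −0.28 (−0.27 in males). The MHC light chain B2m was at 43.29, 30.04, 40.96 and 34.12 FPKM (−0.52 and −0.26).

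Housekeeping classes were near even. Heat shock and unfolded protein genes had 29 listed, none past 2-fold, and a median of −0.17 (−0.12 in males). The chaperone Calr was at 264.02, 200.07, 263.2 and 220.02 FPKM (−0.40 and −0.26). Cytosolic ribosomal proteins had 80 listed, 2 higher and a median of 0.05 (0.12 in males), with sums of 39390, 40890, 42050 and 45440 FPKM. The higher ones, Rpl13 and Rpl39l, have near-identical copies, and Rpl13 was at 1.38, 3.3, 3.1 and 10.54 FPKM (1.02 and 1.62). Nuclear-encoded oxidative phosphorylation genes had 77 listed, 1 higher (Cox6a2, listed at 0.01 in the control female) and a median of −0.05 (−0.05 in males). Chromatin modifiers had 35 of 57 members listed, none past 2-fold, and a median of 0.08 (0.05 in males). The deacetylase Hdac1 was at 20.89, 14.31, 19.89 and 16.94 FPKM (−0.53 and −0.23). Histones had 26 listed and 1 higher, Hist1h2af, with a median of −0.02 (0.00 in males) whose sign depends on the setting; most of their transcripts lack the poly(A) tail that oligo(dT) selects.

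A list of 12 genes was taken from the study, a selection of those it examined by qRT-PCR or docking together with Lnp, a hub gene of its network over both sexes. Of these 7 were listed and none passed 2-fold in females, with a median of −0.04 (−0.11 in males). Ntng1, a netrin relative of axons, came nearest at 2.18, 1.09, 2.42 and 0.91 FPKM (−0.75 and −1.05). It rested on about 105 and 53 fragments in the females. The 0.5 added to each level makes its log2 ratio smaller in size than the plain one. By qRT-PCR the paper reports Ntng1 as significantly reduced by BPA in female pups but not in males. In these libraries it was lower in BPA in both sexes. Tcf4, a basic helix-loop-helix factor, was at 36.53, 30.36, 35.6 and 33.99 FPKM (−0.26 and −0.07). Sox5, a deep layer factor, was at 13.64, 15.71, 14.48 and 13.85 FPKM (0.20 and −0.06). Closer to even were 2 more of them. Lnp, which shapes the endoplasmic reticulum, was at 18.42, 17.86, 19.47 and 17.34 FPKM (−0.04 and −0.16). Yy1, a zinc finger factor, was at 23.19, 23.54, 21.05 and 22.04 FPKM (0.02 and 0.06). Auts2, Ankrd11, Dock4, Syne1 and Rora were not listed.

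The extremes of the whole comparison were mostly scarce genes. Among the 15 lowest ratios at 1 FPKM or more in either library were Ptgds, Cdhr1, Cldn11, Sult1a1, Igf2, Nmb and the matrix gene Efemp1. Gtf2h4, a general transcription factor subunit, was listed at 0.01 in 3 of the libraries, at 2.48, 0.01, 0.01 and 0.01 FPKM. The mast cell protease Mcpt1l1, whose copies share reads, was at 4.97, 0.45, 6.12 and 0.88 FPKM (−2.53 and −2.26). The 15 highest included Rxrg, Ikzf1 and Ebf1. The orphan receptor Gpr139 was at 0.46, 1.7, 0.66 and 1.56 FPKM (1.20 and 0.83). Ctrl, a digestive protease, rested on about 1 and 14 fragments in the females, at 0.15, 2.11, 0.44 and 0.88 FPKM. Ccl6, a chemokine, rested on about 0 and 3 fragments, at 0.01, 1.15, 0.37 and 0.75 FPKM, and equal levels lie within its counting error.

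Gene Ontology terms of matrix and adhesion were among those with the lowest medians. Among 1388 terms with 15 to 300 genes at 1 FPKM or more, the lowest medians were blood circulation (−0.48, 15 genes), collagen binding (−0.41, 19), cartilage development (−0.40, 19), cysteine-type endopeptidase inhibitor activity (−0.40, 18), regulation of cell-substrate adhesion (−0.39, 18) and extracellular matrix (−0.36, 103). The extracellular matrix term had 20 genes lower and none higher. The highest were histone modification (0.10, 17), behavioral fear response (0.09, 16), rRNA processing (0.09, 18), protein serine/threonine/tyrosine kinase activity (0.08, 21), circadian regulation of gene expression (0.08, 21) and transcription elongation factor complex (0.07, 16), none with a gene past 2-fold. These terms were picked by their medians and were not tested.

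Promoters of the genes past 2-fold were searched for AGGTCA, the core motif that many nuclear receptors bind, on both strands from 250 bases before to 50 after each start, in RefSeq sequences of build GRCr8 matched by gene. It was in 29 of the 228 promoters found for the lower genes (12.7%, exact 95% interval 8.69 to 17.8), in 6 of 27 for the higher genes (22.2%, 8.62 to 42.3) and in 1299 of 10719 for the other known genes (12.1%). Over all 27457 promoters of the table the share was 15.7%, and in the meningeal fibroblast list it was 1 of 20. Of the 30 genes at the extremes 26 had a promoter and 5 held the motif: Ptgds, Nxnl1, Hist1h2af, Ccl6 and Riiad1. A match is a description of letters and not a binding site. The promoters of the lower Ptgds (chr3:28682929-28683228, minus strand) and of Ccl6 (chr10:68883317-68883616, minus strand), which holds the motif at 2 places, are shown, the first as the lowest ratio with a match and the second as the one of the 5 with more than 1 match, with AGGTCA or its reverse complement TGACCT in capitals.
Ptgds: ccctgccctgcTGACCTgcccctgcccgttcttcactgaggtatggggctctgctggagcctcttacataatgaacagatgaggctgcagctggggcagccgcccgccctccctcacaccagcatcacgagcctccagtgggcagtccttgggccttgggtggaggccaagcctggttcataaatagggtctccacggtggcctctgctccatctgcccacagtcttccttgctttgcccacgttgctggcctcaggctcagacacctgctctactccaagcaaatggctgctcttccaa
Ccl6: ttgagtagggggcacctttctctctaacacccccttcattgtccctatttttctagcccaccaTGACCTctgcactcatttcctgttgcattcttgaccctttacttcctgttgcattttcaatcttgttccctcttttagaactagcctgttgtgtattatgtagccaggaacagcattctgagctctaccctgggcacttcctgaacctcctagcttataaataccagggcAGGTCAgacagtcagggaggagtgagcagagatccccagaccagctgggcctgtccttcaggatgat

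The males share no library with the females but may share litters with them. In males 201 of 13496 known genes (1.49%) passed 2-fold, 46 (0.341%) higher and 155 (1.15%) lower. Of the 293 female lower genes also listed in males, 67 (22.9%) were lower by 2-fold there and 252 (86%) lay on the same side of 0, with a male median of −0.58, while 55.7% of all known genes of the male comparison lay below 0. Of the 28 female higher genes listed in males, 6 (21.4%) were higher there and 17 (60.7%) had the same sign. The 6 higher in both sexes were Rpl13, Ftl1, Ebf1, Kcne4, Ccnj and Rxrg; Ftl1, the ferritin light chain, was picked after its values were seen. Taken from the male side, the 67 are 44.7% of the 150 male lower genes listed in both sexes, and the 6 are 14% of 43 male higher genes. In opposite directions 7 genes passed 2-fold; the difference between the sexes was not tested. Between libraries of the same treatment, the control female and control male differed by 2-fold in 80 of 13033 known genes (0.614%), and the BPA female and BPA male in 104 (0.798%), where each pair shares its female library with the main comparison. Across those pairs the meningeal fibroblast median was 0.25 for control female to control male and −0.24 for BPA female to BPA male.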

How the data were processed

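Total RNA of frontal cortex labelled postnatal day 1 was selected with oligo(dT), and per the labels the authors aligned reads to rn6 with HISAT and Bowtie 2 and made the deposited FPKM values with RSEM. Each of the 4 files holds 1 library, and no per-sample value column was left unused (0). Known genes are those with a numeric identifier; 13923 of 14008 matched the RefSeq table of GRCr8 by identifier, and symbols come from the files. The members and lists were chosen with earlier results of these data known.

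Ratios are log2((BPA + 0.5)/(control + 0.5)) on FPKM without rescaling, counted at 2-fold, with no test because each group has 1 library. Depth was estimated from the steps between FPKM values of genes with up to 12 fragments and an effective length up to 1100 bases, taking 60 bases from each transcript length. Of 54 gene lists, 51 cover cell types and gene classes, and the others hold 12 genes taken from the study, sex chromosome genes, and mitochondrial genome genes, of which 0 were listed. Named are those 12 genes (a selection of the ones the study examined by qRT-PCR or docking, and a hub gene of its network over both sexes), the 15 highest and 15 lowest ratios among genes with at least 1 FPKM in either female library, in each list the members past 2-fold, the 4 most abundant and the highest and lowest ratio (every member of lists with up to 12), sex chromosome genes, and the 5 most abundant genes; 379 genes in all, of which the report gives a selection; some items are withheld and not reported here. Gene Ontology terms were read from the files, and promoters from RefSeq.

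Alternatives tried were pseudocounts of 0.1, 1 and 5, filters of 1 FPKM in either or both libraries, centring on the median, rescaling by the upper quartile, and thresholds of 1.5-fold and 3-fold. Python 3.11.15, numpy 2.4.6, pandas 2.3.3, scipy 1.17.1 and matplotlib 3.10.9 were used, and the calculations were checked on simulated data.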

Additional observations from a re-analysis of the deposited data

Results flagged for a closer look

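These 7 known genes were picked out because they passed 2-fold in opposite directions in the 2 sexes. The difference between the sexes was not tested. Apart from Zbtb26, whose fragments are given below, each value rests on few fragments. Levels follow the order control female, BPA female, control male and BPA male, and log2 ratios the order female, male. Otos stood at 0.87, 0.01, 0.01 and 0.56 FPKM (−1.43 and 1.06), from about 3, 0, 0 and 2 fragments. Pcp2 stood at 0.56, 0.01, 0.54 and 2.44 FPKM (−1.06 and 1.5), from about 2, 0, 2 and 9 fragments. For Stc2 the levels were 0.79, 0.13, 0.13 and 0.77 FPKM (−1.03 and 1.01), from about 6, 1, 1 and 6 fragments. For S100a4 they were 0.26, 1.04, 1.27 and 0.01 FPKM (1.02 and −1.80), from about 1, 4, 5 and 0 fragments. Zbtb26 had the most fragments, about 13, 38, 19 and 0, at 0.69, 1.93, 0.97 and 0.01 FPKM (1.03 and −1.53). LOC100910802 was at 0.18, 0.91, 0.89 and 0.18 FPKM (1.05 and −1.03), from about 1, 5, 5 and 1 fragments. Eif4ebp3 was at 0.01, 0.79, 0.68 and 0.01 FPKM (1.34 and −1.21), from about 0, 4, 4 and 0 fragments.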

How the results depend on the processing

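No paired analysis was possible because each group has 1 library and the labels give no pairs. Counts past 2-fold are given in the order female, female higher, female lower, male, control female against control male, and BPA female against BPA male; as reported they are 329, 34, 295, 201, 80 and 104. They became 1288, 340, 948, 1002, 495 and 576 with a pseudocount of 0.1, 167, 9, 158, 85, 21 and 36 with 1, and 31, 1, 30, 13, 4 and 4 with 5. With 1 FPKM asked of both libraries, which leaves out genes near 0 in either, they were 141, 7, 134, 76, 16 and 20. With 1 FPKM asked of either library the female higher count was 22 and the control female against control male count 53, and the other counts stayed within 1.5 times. At 1.5-fold they were 1329, 196, 1133, 946, 453 and 552, and at 3-fold 69, 5, 64, 30, 12 and 19. Centring and upper quartile rescaling kept every count within 1.5 times, with 314 and 308 female genes.

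The meningeal fibroblast median ranged from −1.64 to −0.73 over the settings and the arachnoid one from −1.57 to −0.31; collagen chains ranged from −0.97 to −0.21, border macrophages from −1.24 to −0.12, endothelium from −0.60 to −0.25, olfactory bulb neurons from −0.74 to −0.11, Cajal-Retzius cells from −0.71 to −0.11, interferon genes from −0.53 to −0.04, and choroid plexus and thalamus lists up to −0.03 and −0.02. The Wnt median ranged from −0.42 to −0.07, the ependymal one from −0.39 to −0.02 and the retinoic acid one from −0.31 to −0.06. Microglia ranged from −0.40 to −0.16, pericytes from −0.42 to −0.16 and monoamine genes from −0.18 to −0.03. Xenobiotic genes ranged from −0.38 to −0.11 and prostaglandin genes from −0.39 to −0.15. Members past 2-fold in the meningeal list were 25 as reported and 12 with a pseudocount of 5, in the arachnoid list 10 and 5, and in the striatal list 3 and 1. Of 53 lists with a listed member, 47 kept the sign of the median under every setting. Of 109 named genes past 2-fold, 106 stayed past it after centring and after rescaling, 76 with a pseudocount of 1 and 25 with 5, and 0 changed direction. The counts therefore depend on scarce genes. With 1 library per group, exposure, litter, pup and dissection cannot be told apart, and low depth leaves genes below about 10 fragments uncertain.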

Other observations

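Like most known genes, most genes past 2-fold in females were in none of the gene lists, and the share over all known genes was not worked out. They were 212 of the 295 lower ones, 16 of them at 10 FPKM or more in either female library. Of the 34 higher ones they were 25, 1 of them at that level. The genes named here were chosen after their values were seen, and log2 ratios follow the order female, male. The higher one was Ftl1, the ferritin light chain, at 21.24, 45.98, 24.12 and 53.94 FPKM (1.10 and 1.14), with an interval of 0.85 to 1.39; ferritin has many near-identical copies. Of the 16 lower ones, 6 are given here. Serpinh1, the collagen chaperone, was at 42.71, 18.11, 36.45 and 24.26 FPKM (−1.22 and −0.58). The chemokine Cxcl12, which meninges secrete, was at 39.65, 16.21, 40.48 and 28.93 FPKM (−1.26 and −0.48). Gpc3, a surface glypican, was at 23.89, 7.39, 19.6 and 9.77 FPKM (−1.63 and −0.97). The 3 other lower genes named have different roles. Slc7a11, the cystine transporter, was at 14.74, 5.41, 12.23 and 5.76 FPKM (−1.37 and −1.02). The dicarboxylate transporter Slc13a3 was at 10.59, 2.58, 7.98 and 3.33 FPKM (−1.85 and −1.15). Cpne6, a calcium-binding copine of neurons, was at 20.98, 9.22, 16.95 and 6.97 FPKM (−1.14 and −1.22), by nearly the same amount in both sexes.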
